A study of Mus musculus with 12 samples.

Results

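Transcripts of 9 genes of retinoic acid signalling were followed from embryonic stem cells (ESCs) into sorted day 3 cells. The 9 genes were taken by name as the enzymes, binding proteins, receptors and responder of the pathway (Stra6, Dhrs3, Aldh1a2, Cyp26a1, Crabp1, Crabp2, Rarb, Rarg and Stra8), and they are 9 of the 80012 loci counted. All 9 passed the filter on low values. The data are RNA-Seq of polyadenylated RNA in 12 mouse libraries, 4 from each of 3 cell populations. All came from 1 ESC line, labelled as C57BL/6, in which a green fluorescent protein cassette sits at the start of the endogenous Eomes gene. The line was grown on mouse embryonic fibroblast feeders and taken undifferentiated at day 0 (ESC), or differentiated as hanging drops and sorted at day 3 for the reporter into a positive (Eo+) and a negative (Eo-) fraction. Per the study's methods the medium differed too, with leukemia inhibitory factor listed for the ESC culture and thioglycerol and ascorbic acid for the differentiation, so that day and medium cannot be told apart between ESC and the day 3 cells. Replicates carry the numbers 1, 2, 5 and 6 in every group and stem, per the study's methods, from separate differentiation sets of that single line, so that Eo- means absence of reporter fluorescence and not a defined cell type.

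Retinoic acid is made from vitamin A, which circulates as retinol and enters cells through the membrane receptor STRA6. Dehydrogenases of the RDH family oxidise retinol to retinaldehyde, DHRS3 reduces it back, and ALDH1A enzymes, chiefly ALDH1A2 in the early embryo, complete the synthesis. The acid is carried by CRABP1 and CRABP2, binds nuclear receptors of the RAR family, which pair with RXR partners on DNA, and is cleared by CYP26 enzymes. In the gastrulating embryo, synthesis and clearance take place in different territories, and the balance between them patterns the body axis. Rarb, Cyp26a1, Dhrs3 and Stra8 are textbook genes that respond to the acid.

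The receptors bind pairs of a 6-base element repeated in the same orientation. The 300 bases around RefSeq gene starts (250 before and 50 after, GRCm38.p6) were searched on both strands for the hexamers AGGTCA (the classical form), AGTTCA (a variant), GGTTCA (another) and GGGTCA (a further form), alone or repeated with 1, 2 or 5 bases between them. A hexamer inside a repeat was also counted as a single hexamer. Windows were at hand for 8 of the 9 genes, 14 windows in all, while Crabp2 had no entry. A repeat spaced by 5 bases was found in the Cyp26a1 window, at -32 to -16 from the gene start and on the opposite strand, and in the Rarb window, at -53 to -37 on the gene's own strand. The element of Rarb is a textbook example behind these forms, so that its match is shown as a known sequence. Neither match is presented as a find of the search. The remaining 12 windows of the 8 genes held none of the 3 spacings. Over all 32851 windows of the table, 32 (0.0974%) held the repeat spaced by 5 bases and 0.588% held any of the 3 repeats. A single hexamer was in 5 of the 14 windows against 43.7% of all windows, among them 2 copies in that of Stra8. These are matches of letters, with no measurement of binding. The 250 bases before both starts are shown because, of the 8 genes with a window, these carried a repeat. Capitals mark the hexamers of the repeat, Cyp26a1 lies at chr19:37697558-37697807 on the plus strand, and Rarb at chr14:16575477-16575726 on the minus strand.
Cyp26a1: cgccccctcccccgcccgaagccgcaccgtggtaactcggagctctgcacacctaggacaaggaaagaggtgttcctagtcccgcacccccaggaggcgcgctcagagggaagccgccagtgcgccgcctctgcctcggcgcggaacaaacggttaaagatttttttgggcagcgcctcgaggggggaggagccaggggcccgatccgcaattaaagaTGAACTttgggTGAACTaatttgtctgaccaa
Rarb: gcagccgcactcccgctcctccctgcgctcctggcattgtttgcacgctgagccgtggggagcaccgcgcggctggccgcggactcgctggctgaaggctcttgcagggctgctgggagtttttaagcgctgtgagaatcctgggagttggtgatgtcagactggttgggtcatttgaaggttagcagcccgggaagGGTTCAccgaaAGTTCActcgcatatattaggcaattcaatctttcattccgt

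Levels are given as CPM, that is read counts scaled to a common library size, with library sizes adjusted by the trimmed mean of M values (TMM). Means carry the SD of 4 libraries, and values per library follow the order of replicates 1, 2, 5 and 6. FPKM is the same level per kilobase of the summed exon length of the locus. Locus counts were 648413022 to 837308168 per library, and 3 counts, taken as the floor, equal 0.00355 to 0.00468 CPM. Log2 fold changes carry their SE and come from the limma fit over all 12 libraries, with p-values adjusted over 17922 loci by the Benjamini-Hochberg procedure. The labels were checked on marker lists. All 10 mesendoderm markers rose in Eo+ cells vs ESC and vs Eo-, beside 35.8% and 23.0% of all tested loci called higher. Eomes is among the 10 and its reporter defined the sort, so that its rise is no check. Of 7 pluripotency markers, 6 fell in each day 3 fraction vs ESC, beside 36.1% (Eo+) and 31.3% (Eo-) of all tested loci. In bulk RNA, fewer cells that express a gene and less of its RNA per cell cannot be told apart.

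In Eo+ vs ESC, 4 of the 9 genes rose (Cyp26a1, Stra6, Rarb and Crabp1), 4 fell (Stra8, Crabp2, Rarg and Aldh1a2) and Dhrs3 did not pass the test. This count of 8 stands beside a background of 71.9% of all tested loci called, 35.8% higher and 36.1% lower. In Eo- vs ESC, Cyp26a1 and Crabp2 rose and Stra8, Rarg and Aldh1a2 fell, 5 of 9 against a background of 62.2% (30.9% higher, 31.3% lower). In Eo+ vs Eo-, Cyp26a1, Stra6, Rarb and Crabp1 rose and Crabp2 and Rarg fell, 6 of 9 against a background of 47.7% (23.0% higher, 24.6% lower). Replicate numbers pair these fractions, and with a block on the number 8 of 9 were called (Stra8 and Dhrs3 in addition) against 53.3% of all loci, or 9 of 9 (Aldh1a2 as well) against 58.0% in the day 3 libraries alone, a setting chosen after the data were seen. The libraries of the groups compared did not overlap for 7, 3 and 6 of the genes, against 62.2%, 55.2% and 43.3% of all loci. With a change of at least 2-fold required as well, the counts were 8, 2 and 6 of 9, against backgrounds of 38.1%, 28.3% and 21.1%. Taken as a list, these shares do not set the 9 genes apart from the transcriptome in Eo- vs ESC, and no test was made of the difference in the other comparisons. The 3 comparisons share their libraries pairwise.

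**Figure D1:**
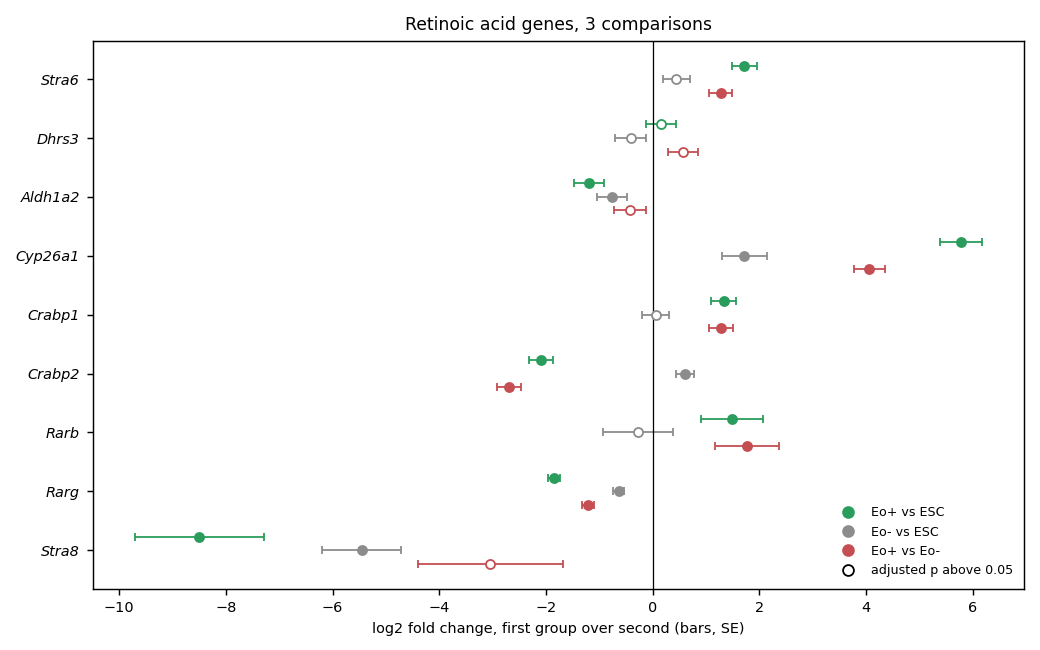
Log2 fold change of each of the 9 genes in the 3 comparisons (x axis, first group over second, with SE bars), with open symbols where the adjusted p was above 0.05. Cyp26a1 sits at 5.78 and Stra8 at -8.50 in Eo+ vs ESC, while Crabp2 lies at 0.60 in Eo- vs ESC and at -2.09 in Eo+ vs ESC.

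Cyp26a1 (XLOC_035576, ENSMUSG00000024987, chr19:37678252-37701528, plus strand, mm10) encodes the main hydroxylase that clears retinoic acid in the early embryo. It was measured at 8.63, 7.69, 18.4 and 2.68 CPM in the ESC libraries, at 36.4, 24.4, 15.0 and 29.0 CPM in the Eo- libraries and at 376, 463, 308 and 516 CPM in the Eo+ libraries. Every Eo+ library lay far above all others, whereas ESC replicate 5 exceeded Eo- replicate 5. The mean rose from 9.34 ± 6.56 CPM in ESC to 416 ± 92.0 CPM in Eo+, or from 2.72 to 121 FPKM. Eo+ vs ESC gave a log2 fold change of 5.78 ± 0.39, a 55.1-fold rise (limma adjusted p = 2.22e-08). The rise was 4.06 ± 0.30, or 16.7-fold, relative to Eo- (adjusted p = 4.34e-07). Of 14216 tested protein-coding genes (PCGs), 58 rose more in the first comparison and 44 in the second. The intermediate level in Eo-, 26.2 ± 8.98 CPM, was 3.29-fold that in ESC, which is 1.72 ± 0.43 on the log2 scale (adjusted p = 0.00326).

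In ESC and Eo- the libraries with the most and the least Cyp26a1 were also those at the ends of a mesendoderm marker list. The 10 markers of that list, none of which was at or under the floor throughout any group, summed to 172, 185, 298 and 95.8 CPM in ESC, 551, 497, 268 and 482 CPM in Eo- and 2031, 3409, 2031 and 2974 CPM in Eo+. These were replicates 5 (most) and 6 (least) in ESC and 1 (most) and 5 (least) in Eo-. In Eo+ the sum was highest in replicate 2 and Cyp26a1 in replicate 6, and the lowest sums, of replicates 1 and 5, were equal to within 1 CPM. The part of the marker-expressing cells in the Cyp26a1 differences was not tested.

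**Figure D2:**
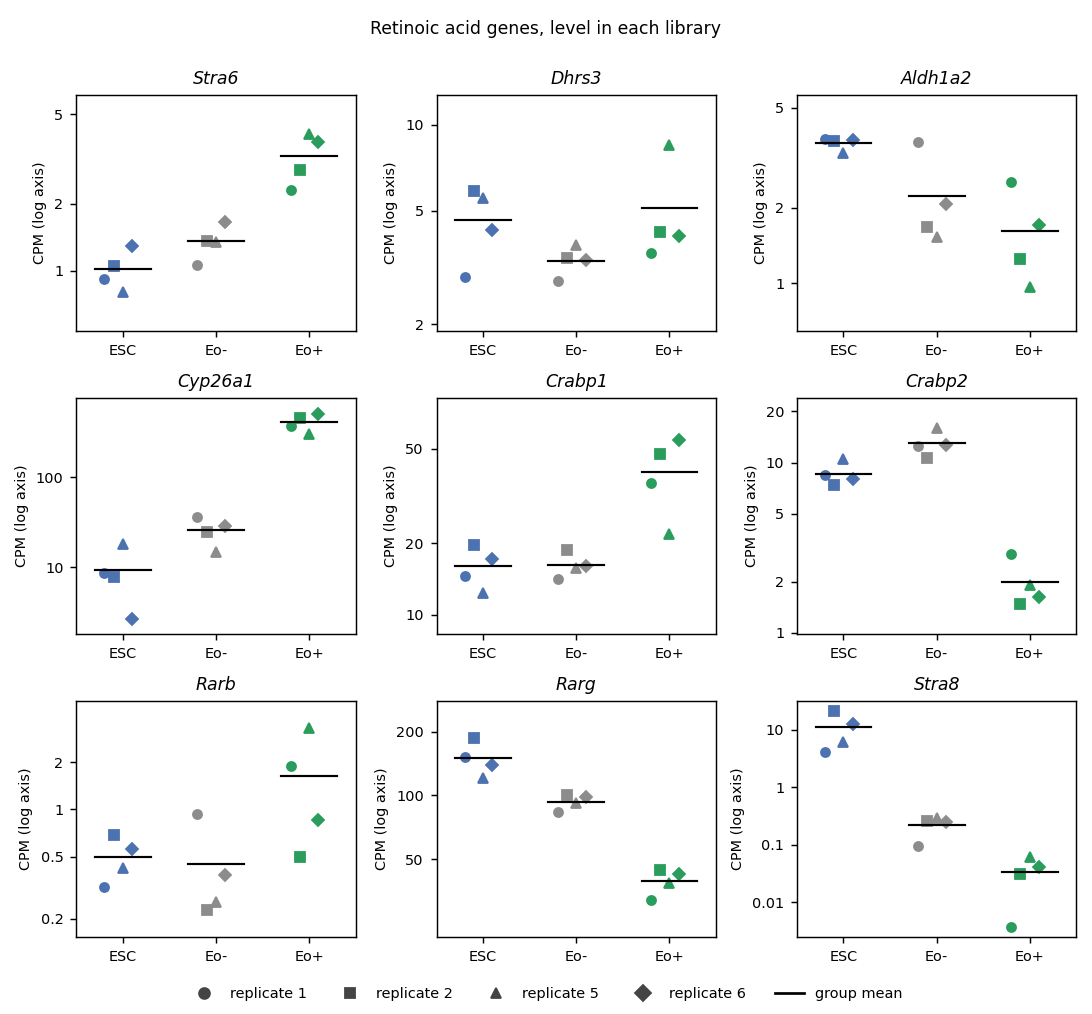
Level of each of the 9 genes in every library (y axis, CPM, log axis, with a scale of its own in each panel), with symbols for the replicate numbers and bars for group means. Cyp26a1 in the 4 Eo+ libraries sits between 308 and 516 CPM, above all others, and Stra8 in Eo+ between 0.00368 and 0.0614 CPM, below all others.

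The assembled locus of Cyp26a1 is longer than the annotated gene. The Ensembl transcript starts at position 37697808, and 2 assembled isoforms add an exon 19556 bases upstream, beyond Cyp26c1, a paralog on the same strand whose Ensembl transcript ends 4410 bases before the Cyp26a1 start. Of the exon bases of the locus, 1656 lie outside the Ensembl transcript. On the opposite strand lies a non-annotated multiexonic locus, XLOC_036621 (chr19:37692550-37697531), whose 5′ end is 277 bases from the Ensembl start of Cyp26a1. It was singled out after its values were seen. XLOC_036621 measured 0.194, 0.237, 0.497 and 0.105 CPM in ESC, 1.10, 0.760, 0.356 and 1.01 CPM in Eo-, and 9.23, 15.9, 6.86 and 17.4 CPM in Eo+. It rose by 5.73 ± 0.53 in Eo+ vs ESC (adjusted p = 3.72e-07), by 3.98 ± 0.41 in Eo+ vs Eo- (adjusted p = 5.97e-06) and by 1.75 ± 0.61 in Eo- vs ESC (adjusted p = 0.0232). The fold changes lay within 1 SE of those of Cyp26a1. Its counts were between 2.22% and 3.91% of the Cyp26a1 counts in each of the 12 libraries. Of its 1657 exon bases, 508 overlap exons of the assembled Cyp26a1 isoforms, 769 overlap exons of Cyp26c1 and 0 overlap the Ensembl Cyp26a1 transcript. Reads were counted by strand, and whether a constant share of reads assigned to the wrong strand contributed was not tested.

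**Figure D3:**
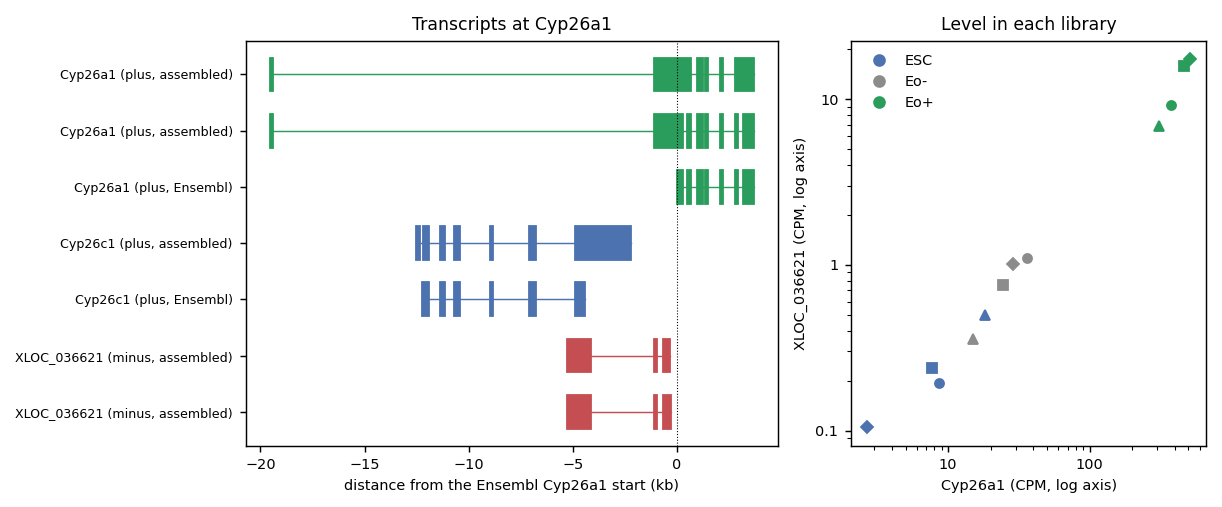
Left, transcripts at Cyp26a1 drawn to scale by distance from its Ensembl start (x axis, kb), with boxes for exons, the strand and the source of each model at the left. Right, CPM of XLOC_036621 against CPM of Cyp26a1 in the 12 libraries (both log axes), coloured by group, with the 4 Eo+ libraries at 6.86 to 17.4 CPM of XLOC_036621.

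The other CYP26 enzymes had lower levels per length, with Eo+ means of 0.576 FPKM for Cyp26c1 and 0.0436 FPKM for Cyp26b1. Cyp26c1 measured 0.318 ± 0.0775 CPM in ESC, 0.690 ± 0.299 CPM in Eo- and 2.42 ± 1.07 CPM in Eo+. It rose by 2.89 ± 0.41 in Eo+ vs ESC (adjusted p = 2.13e-05) and by 1.84 ± 0.36 in Eo+ vs Eo- (adjusted p = 0.000921). Its exons overlap those of XLOC_036621 on the other strand. Cyp26b1 remained below the filter on low values, with group means of 0.308 CPM in ESC, 0.106 CPM in Eo- and 0.211 CPM in Eo+, and was not tested.

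On the side of synthesis, Aldh1a2 (XLOC_071081, ENSMUSG00000013584, chr9:71215789-71296280, plus strand), the retinaldehyde dehydrogenase of the early embryo, fell. It was at 3.75, 3.68, 3.32 and 3.73 CPM in ESC, at 3.64, 1.67, 1.52 and 2.06 CPM in Eo- and at 2.53, 1.25, 0.964 and 1.71 CPM in Eo+. The ESC libraries lay close together and above every Eo+ library, and replicate 1 was the highest in each day 3 fraction, in Eo- at a level within the ESC range. Relative to ESC its log2 fold change was -1.19 ± 0.29 in Eo+, a 2.28-fold fall (adjusted p = 0.00202), and -0.76 ± 0.28 in Eo- (adjusted p = 0.0275). The latter passed 0.05 by a small margin, with an adjusted p of 0.0707 in edgeR and of 0.0530 to 0.0890 without ESC replicate 1 or 6 or Eo- replicate 2, 5 or 6. In Eo+ vs Eo- the difference of -0.43 ± 0.30 did not pass the test (adjusted p = 0.256), but with pairing by replicate number among the day 3 libraries alone it was -0.42 (adjusted p = 0.0117). The summed level of 13 feeder fibroblast markers was 109 to 303 CPM in ESC against 31.5 to 43.5 CPM in Eo- and 30.7 to 45.2 CPM in Eo+. None was at or under the floor throughout a group. Of 11 tested markers, 9 were lower in each day 3 fraction vs ESC, beside 36.1% (Eo+) and 31.3% (Eo-) of all loci. In each fraction 1 was higher, Pdgfrb in Eo+ (11.3 CPM) and Thy1 in Eo- (21.4 CPM), and these are part of the day 3 sums. The part of feeder cells in the lower level of genes at day 3 was not tested.

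The paralogs had lower levels per length than Aldh1a2, which stood at 1.50 FPKM in ESC against 0.227 FPKM for Aldh1a3 and 0.0895 FPKM for Aldh1a1. Aldh1a3 measured 1.06 ± 0.584 CPM in ESC, and fell by 1.37 ± 0.38 on the log2 scale in Eo+ vs ESC (adjusted p = 0.00480) and by 1.98 ± 0.40 in Eo- vs ESC (adjusted p = 0.000674). In the ESC libraries it was at 1.21, 0.645, 1.82 and 0.562 CPM beside feeder marker sums of 303, 144, 232 and 109 CPM, so that replicates 1 and 5 were the higher pair in both, and the part of feeder cells in its fall was not tested. Aldh1a1 was below the filter, at group means of 0.184 CPM in ESC, 0.0813 CPM in Eo- and 0.0574 CPM in Eo+.

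The ratio of Aldh1a2 to Cyp26a1, of synthesis to clearance, was formed per exon length in each library. It was 0.617, 0.678, 0.256 and 1.97 in ESC, 0.141, 0.0970, 0.144 and 0.101 in Eo-, and 0.00953, 0.00382, 0.00443 and 0.00470 in Eo+. The ranges of the 3 groups did not overlap, and Aldh1a2 exceeded Cyp26a1 in ESC replicate 6 alone. With the length of the Ensembl transcripts in place of the assembled loci, the ratios were 0.141 to 1.09 in ESC and 0.00211 to 0.00527 in Eo+.

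Dhrs3 (XLOC_049354, ENSMUSG00000066026, chr4:144892513-144928209, plus strand), which returns retinaldehyde to retinol, passed the test in none of the 3 comparisons by limma without a block on the replicate number. Its levels were 2.92, 5.86, 5.51 and 4.27 CPM in ESC, 2.83, 3.40, 3.78 and 3.35 CPM in Eo- and 3.55, 4.22, 8.48 and 4.08 CPM in Eo+. Replicate 5 of Eo+ stood apart from the other 3, whose values lay within the ESC range, and ESC and Eo- overlapped. The log2 fold changes were 0.15 ± 0.28 in Eo+ vs ESC (adjusted p = 0.630, and -0.14 without Eo+ replicate 5), -0.41 ± 0.29 in Eo- vs ESC (adjusted p = 0.231) and 0.56 ± 0.29 in Eo+ vs Eo- (adjusted p = 0.120). Within pairs of the same number Dhrs3 was higher in Eo+ in 4 of 4 sets, and the blocked fit gave 0.60 (adjusted p = 0.0320) over all libraries and 0.61 (adjusted p = 0.0268) over the day 3 libraries alone. DESeq2 without a block also called it, at 0.67 (adjusted p = 0.0395). Without 1 library at a time, and with no block, the value was 0.27 to 0.71, lowest without Eo+ replicate 5 (adjusted p = 0.332), and no blocked fit was made without that library.

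Stra6 (XLOC_070846, ENSMUSG00000032327, chr9:58063788-58156344, plus strand) encodes the cell surface receptor through which retinol bound to its carrier enters. It was at 0.924, 1.05, 0.806 and 1.29 CPM in ESC, at 1.06, 1.36, 1.35 and 1.66 CPM in Eo- and at 2.30, 2.84, 4.08 and 3.77 CPM in Eo+. All Eo+ libraries exceeded all others, while ESC and Eo- overlapped. The rise was 1.72 ± 0.23, or 3.29-fold, in Eo+ vs ESC (adjusted p = 1.39e-05) and 1.27 ± 0.22, or 2.42-fold, in Eo+ vs Eo- (adjusted p = 0.000378), and Eo- vs ESC gave 0.44 ± 0.25 (adjusted p = 0.136). Its locus holds 26 transcript models over 8336 exon bases, so that its level per length was low, at 0.122 FPKM in ESC, 0.163 FPKM in Eo- and 0.389 FPKM in Eo+. With the mean length of its Ensembl transcripts the Eo+ level was 1.57 FPKM. Stra6, Crabp1 and Aldh1a2 lie within 16.53 Mb of chromosome 9, of which Stra6 and Crabp1 rose and Aldh1a2 fell in Eo+ vs ESC.

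The binding proteins moved in opposite directions in Eo+ cells relative to either other group. Crabp1 (XLOC_070747, ENSMUSG00000032291, chr9:54763901-54773110, plus strand), a cytosolic carrier associated with retinoic acid turnover, measured 14.6, 19.7, 12.4 and 17.2 CPM in ESC, 14.1, 18.7, 15.7 and 16.0 CPM in Eo- and 35.9, 47.4, 21.9 and 54.7 CPM in Eo+. Eo+ libraries lay above all others, with replicate 5 nearest to them. Crabp1 rose by 1.33 ± 0.23, or 2.51-fold, in Eo+ vs ESC (adjusted p = 0.000135) and by 1.28 ± 0.23 in Eo+ vs Eo- (adjusted p = 0.000439). In Eo- vs ESC the difference was 0.05 ± 0.25 (adjusted p = 0.862), and its sign changed with the processing.

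Crabp2 (XLOC_044104, ENSMUSG00000004885, chr3:87948666-87953376, plus strand), which carries the acid to its receptors in the nucleus, measured 8.44, 7.42, 10.5 and 8.06 CPM in ESC, 12.5, 10.7, 16.0 and 12.6 CPM in Eo- and 2.90, 1.47, 1.92 and 1.63 CPM in Eo+. The 3 groups did not overlap, with Eo- highest and Eo+ lowest. Crabp2 rose by 0.60 ± 0.17, or 1.52-fold, in Eo- vs ESC (adjusted p = 0.00796), whereas Eo+ gave log2 fold changes of -2.09 ± 0.23 against ESC (adjusted p = 1.86e-06) and -2.69 ± 0.22 against Eo- (adjusted p = 9.75e-07), a 6.47-fold difference between the day 3 fractions. It was the one gene of the 9 called in opposite directions in the day 3 fractions vs ESC. Per exon length, the ratio of Crabp2 to Crabp1 was 0.268 to 0.605 in ESC, 0.405 to 0.727 in Eo- and 0.0213 to 0.0623 in Eo+, and Eo+ did not overlap the other groups. Crabp1 was the more abundant of the pair in every library on this scale, but with the length of the Ensembl transcripts the ratio reached 1.03 in Eo- replicate 5.

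Of the RAR genes, Rarg (XLOC_026883, ENSMUSG00000001288, chr15:102234938-102257517, minus strand), the isotype of early embryonic cells, had the highest level per length, at 36.3 FPKM in ESC, 22.8 FPKM in Eo- and 9.62 FPKM in Eo+ against 10.3, 6.59 and 5.86 FPKM for Rara. It measured 151, 186, 120 and 139 CPM in ESC, 84.0, 100.3, 91.6 and 98.5 CPM in Eo- and 32.2, 44.5, 38.8 and 42.6 CPM in Eo+. The groups formed 3 steps without overlap. Rarg changed by -1.85 ± 0.12 in Eo+ vs ESC (3.61-fold lower, adjusted p = 1.32e-08), by -0.64 ± 0.11 in Eo- vs ESC (adjusted p = 0.000185) and by -1.21 ± 0.12 in Eo+ vs Eo- (adjusted p = 4.45e-06), and no setting or left-out library ended these calls.

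Rarb (XLOC_022747, ENSMUSG00000017491, chr14:16430842-16575615, minus strand), a receptor gene that is itself induced by the acid, was low and variable. It measured 0.319, 0.691, 0.420 and 0.558 CPM in ESC, 0.929, 0.229, 0.256 and 0.380 CPM in Eo- and 1.89, 0.496, 3.30 and 0.853 CPM in Eo+. Eo+ replicates 1 and 5 exceeded all other libraries, Eo+ replicate 2 lay within the ESC range, and replicate 1 was the highest in Eo-. The fit gave 1.49 ± 0.58 in Eo+ vs ESC (adjusted p = 0.0341), 1.77 ± 0.60 in Eo+ vs Eo- (adjusted p = 0.0259) and -0.28 ± 0.66 in Eo- vs ESC (adjusted p = 0.726). Without 1 library at a time the log2 fold change stayed between 1.02 and 1.98 vs ESC and between 1.30 and 2.27 vs Eo-, with fewer libraries in each fit. The call vs ESC was lost, with an adjusted p of 0.0926 without ESC replicate 1, 0.0698 without ESC replicate 5, 0.0511 without ESC replicate 6, 0.0779 without Eo+ replicate 1 and 0.0891 without Eo+ replicate 5. The call vs Eo- was likewise lost without Eo- replicate 2, 5 or 6 (adjusted p of 0.0792, 0.0713 and 0.0536), Eo+ replicate 1 (0.0608) or Eo+ replicate 5 (0.0548), and with the 2 fractions alone in the fit (0.0519).

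Markers of visceral endoderm, an extraembryonic cell type, were set beside Rarb. The 10 markers summed to 253, 27.4, 196 and 76.9 CPM in Eo+, to 38.6, 9.95, 14.1 and 15.5 CPM in Eo- and to 19.3, 13.1, 18.1 and 18.5 CPM in ESC, where Apoa4 was at or under the floor in all 4 libraries. Of the 10 markers, 8 rose and 1 (Amn) fell in Eo+ vs ESC, beside 35.8% of all loci called higher and 36.1% lower. In Eo+ vs Eo-, 7 rose, beside 23.0% of all loci. The libraries of these 2 fractions did not overlap for 1 of the 10, against 43.3% of all loci. Cubn passed the test in neither comparison. The Eo+ libraries with the most Rarb, replicates 5 and 1, were those with the highest sums, and replicate 2 was lowest in both. Spink1 had the highest Eo+ mean of the 10 markers, 88.8 CPM (14.9 to 151 CPM), and weighs most in these sums. In Eo- the order of the libraries was the same for Rarb and the sum, whereas in ESC replicate 2 held the most Rarb and the lowest sum and replicate 1 the least Rarb and the highest sum. Without Eo+ replicates 1 and 5 together, a setting chosen after the data were seen, the 7 other called genes in Eo+ vs ESC and the 5 others in Eo+ vs Eo- were still called. For Rarb that setting is no test, since it leaves out the libraries with the most Rarb. The part of visceral endoderm in the values of Rarb and of the other genes was not tested.

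**Figure D4:**
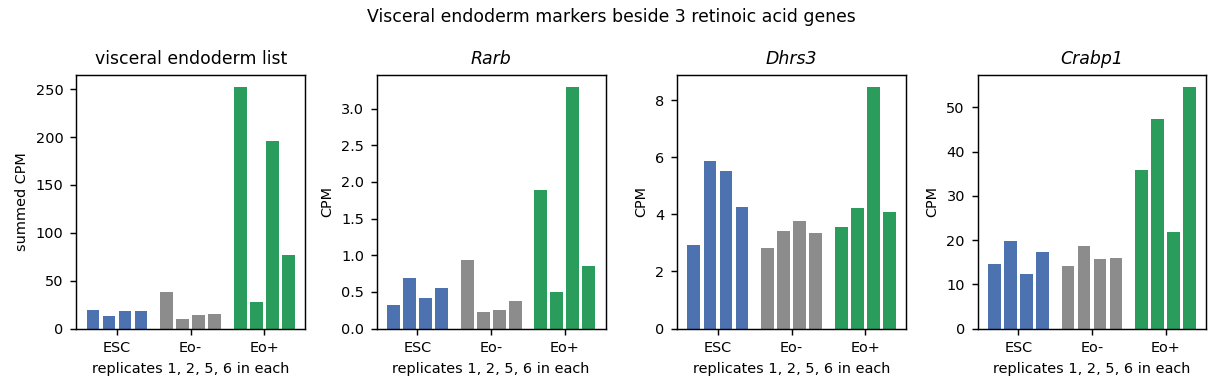
Summed CPM of 10 visceral endoderm markers and CPM of Rarb, Dhrs3 and Crabp1 (y axes from 0) in every library, with replicates 1, 2, 5 and 6 from left to right in each group. The sum reaches 253 CPM in Eo+ replicate 1 and 196 CPM in Eo+ replicate 5, where Rarb is at 1.89 and 3.30 CPM and Crabp1 at 35.9 and 21.9 CPM.

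Per exon length, the ratio of Rarb to Rarg was 0.00276 to 0.00525 in ESC, 0.00299 to 0.0145 in Eo- and 0.0146 to 0.111 in Eo+. With the length of the Ensembl transcripts it was lower, at 0.000861 to 0.00164, 0.000934 to 0.00453 and 0.00456 to 0.0348. Rara, the widely expressed isotype, fell from 72.6 ± 13.1 CPM in ESC to 46.5 ± 3.38 CPM in Eo- and 41.4 ± 3.37 CPM in Eo+ (log2 fold change -0.61 ± 0.10 and -0.73 ± 0.10, adjusted p = 0.000178 and 2.41e-05). Among the RXR partners, Rxrg rose from 2.63 ± 0.130 CPM in ESC to 10.6 ± 2.99 CPM in Eo- and 20.7 ± 8.95 CPM in Eo+ (1.98 ± 0.36 and 2.92 ± 0.34, adjusted p = 0.000332 and 3.95e-06). Rxra rose by 1.10 ± 0.12 in Eo+ vs ESC (adjusted p = 1.38e-06), whereas Rxrb, at 62.6 to 68.7 CPM in the group means and at 18.6 FPKM in Eo+, above Rarg there, passed the test in no comparison.

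Stra8 (XLOC_056971, ENSMUSG00000029848, chr6:34920163-34939344, plus strand), the retinoic acid responder required for entry into meiosis in germ cells, had the largest fall of the 9 genes. It measured 4.11, 21.5, 6.24 and 12.9 CPM in ESC, 0.0946, 0.256, 0.291 and 0.247 CPM in Eo- and 0.00368, 0.0314, 0.0614 and 0.0406 CPM in Eo+. In counts these were 3265 to 15260 in ESC, 80 to 216 in Eo- and 3, 24, 47 and 26 in Eo+, where replicate 1 was at the floor. The groups did not overlap. Relative to ESC, Stra8 changed by -8.50 ± 1.21 in Eo+ (adjusted p = 2.29e-05, and by -7.64 without Eo+ replicate 1) and by -5.45 ± 0.74, a 43.8-fold fall, in Eo- (adjusted p = 2.80e-05). Of the tested PCGs, 84 fell more in the first and 98 in the second comparison. In Eo+ vs Eo- the difference of -3.05 ± 1.36 did not pass the test (adjusted p = 0.0801), although every Eo- library exceeded every Eo+ library. Without 1 library at a time the difference was -3.52 to -2.19. It was called with edgeR (-2.65, adjusted p = 0.00450), with DESeq2 (-2.65, adjusted p = 0.000866), without ESC replicate 1 or 2 (adjusted p of 0.0424 and 0.0269), with the 2 fractions alone (adjusted p = 0.00745) and with the replicate block (adjusted p = 0.00161 over all libraries, 0.00221 over the day 3 libraries alone).

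Markers of germ cells and of early embryonic cells were set beside Stra8. Of 10 meiotic germ cell markers, 10 fell in Eo+ and 7 in Eo- relative to ESC, beside 36.1% and 31.3% of all loci called lower, and their sum was 109 to 186 CPM in ESC, 81.0 to 99.5 CPM in Eo- and 22.9 to 34.8 CPM in Eo+, with none at or under the floor throughout a group. Of 7 markers of 2-cell-like cells, a rare state in ESC cultures, 7 fell in both comparisons, from a sum of 27.6 to 60.5 CPM in ESC to at most 1.77 CPM in Eo- and 0.0640 CPM in Eo+, where 3 were at or under the floor in all 4 libraries. ESC replicates 2 and 6 held the most Stra8 and the highest sum of either list. The part of these states in the Stra8 values was not tested.

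The spread of each gene over the groups was summarised by the normalised difference, in which the gap between the highest and the lowest group mean (FPKM) is divided by the average of the 3 means. It was 2.92 for Stra8 and 2.70 for Cyp26a1, values exceeding those of 99.5% and 98.2% of the tested PCGs. Crabp2 (1.40), Rarb (1.38), Stra6 (1.19), Rarg (1.17), Crabp1 (0.999) and Aldh1a2 (0.807) were also above the PCG median of 0.476, and Dhrs3 (0.401) was below it. In ESC the order of levels per exon length was Rarg (36.3 FPKM), Crabp1 (16.9), Crabp2 (6.50) and Stra8 (6.16), and in Eo+ it was Cyp26a1 (121), Crabp1 (42.4) and Rarg (9.62).

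The genes whose log2 CPM profile, centred on its mean over the 12 libraries, lay nearest to that of Cyp26a1 were Sema6d, a semaphorin, Lhx1, a mesendoderm transcription factor, and Bmp2, a growth factor, with root mean square distances of 0.412, 0.560 and 0.566 against a median of 2.50 over 12937 loci. Their Eo+ means were 39.9, 571 and 55.7 CPM. For Aldh1a2 the nearest were Ccdc3 (0.289), Klf8 (0.296) and Was (0.314), against a median of 0.756, each with its highest mean in ESC.

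The rest of the pathway was followed in 5 lists of 56 further genes, of which 46 were tested. Of these, 20 rose and 17 fell in Eo+ vs ESC, 14 rose and 16 fell in Eo- vs ESC, and 20 rose and 8 fell in Eo+ vs Eo-. The called shares, 80.4%, 65.2% and 60.9%, stand beside 71.9%, 62.2% and 47.7% of all loci. The median log2 fold change of the 46 genes was 0.11, 0.00 and 0.39, and that of all loci 0.00, 0.02 and -0.01.

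Of 6 tested genes of retinoid uptake and storage, 5 rose and 1 fell in Eo+ vs ESC, beside 35.8% of all loci called higher and 36.1% lower, and no test of the list was made. Rbp4, the retinol carrier of plasma, rose from 1.48 ± 0.458 to 7.90 ± 1.38 CPM (2.53 ± 0.24, adjusted p = 4.10e-07), and Bco2, a carotenoid-cleaving enzyme, from 0.170 ± 0.0430 to 1.15 ± 0.150 CPM (2.83 ± 0.22, adjusted p = 7.31e-08). Ttr, which binds RBP4 in plasma, was at 22.1, 0.664, 10.9 and 3.53 CPM in Eo+, in the same order as the visceral endoderm sum, a list to which Ttr and Rbp4 also belong. Lrp2, an endocytic receptor that takes up RBP4 among other ligands, fell from 40.3 ± 8.03 CPM in ESC to 5.81 ± 2.75 CPM in Eo+ (-2.81 ± 0.29, adjusted p = 1.26e-06) and was at 46.0 ± 8.71 CPM in Eo-. Among 11 tested genes of synthesis, 3 rose and 5 fell in Eo+ vs ESC. Rdh10, the retinol dehydrogenase of the embryo, was at 10.4 to 19.6 CPM in all 12 libraries and passed the test in no comparison.

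Of 16 tested genes known to respond to retinoic acid, 6 rose and 6 fell in Eo+ vs ESC, 1 rose and 6 fell in Eo- vs ESC, and 8 rose and 2 fell in Eo+ vs Eo-. The shares called, 75%, 43.8% and 62.5%, stand beside 71.9%, 62.2% and 47.7% of all loci. Their median log2 fold change was -0.38, -0.83 and 0.89. Cdx1, a patterning factor of the posterior axis, fell in both day 3 fractions. It measured 10.7 ± 3.81 CPM in ESC, 0.305 ± 0.136 CPM in Eo- and 1.10 ± 0.613 CPM in Eo+ (-5.17 ± 0.51 in Eo- vs ESC, adjusted p = 1.66e-06, and -3.33 ± 0.41 in Eo+ vs ESC, adjusted p = 5.50e-06). Hoxb1, a hindbrain patterning factor, was at 3.25 ± 0.758 CPM in ESC and 17.2 ± 10.4 CPM in Eo+ (2.20 ± 0.59, adjusted p = 0.00415), with Eo+ replicate 5 at 4.92 CPM.

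Bhlhe40, a transcriptional repressor, fell from 59.2 ± 31.4 to 5.42 ± 1.18 CPM in Eo+ vs ESC (-3.28 ± 0.36, adjusted p = 1.79e-06). Lefty1, a Nodal inhibitor, fell by 2.38 ± 0.24 on the log2 scale (adjusted p = 8.49e-07), and Hoxa3, whose locus is joined with Hoxa2, had a log2 fold change of -3.31 ± 0.51 (adjusted p = 5.22e-05). Among the rises were those of Meis2 (1.89 ± 0.40, adjusted p = 0.000776), a cofactor of HOX proteins, and of Gata4 (5.88 ± 0.40, adjusted p = 2.46e-08) and Foxa1 (2.91 ± 0.39, adjusted p = 1.46e-05), transcription factors of endoderm. Gata4 is also on the mesendoderm list, and the study uses it as a marker of cardiac mesoderm.

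**Figure D5:**
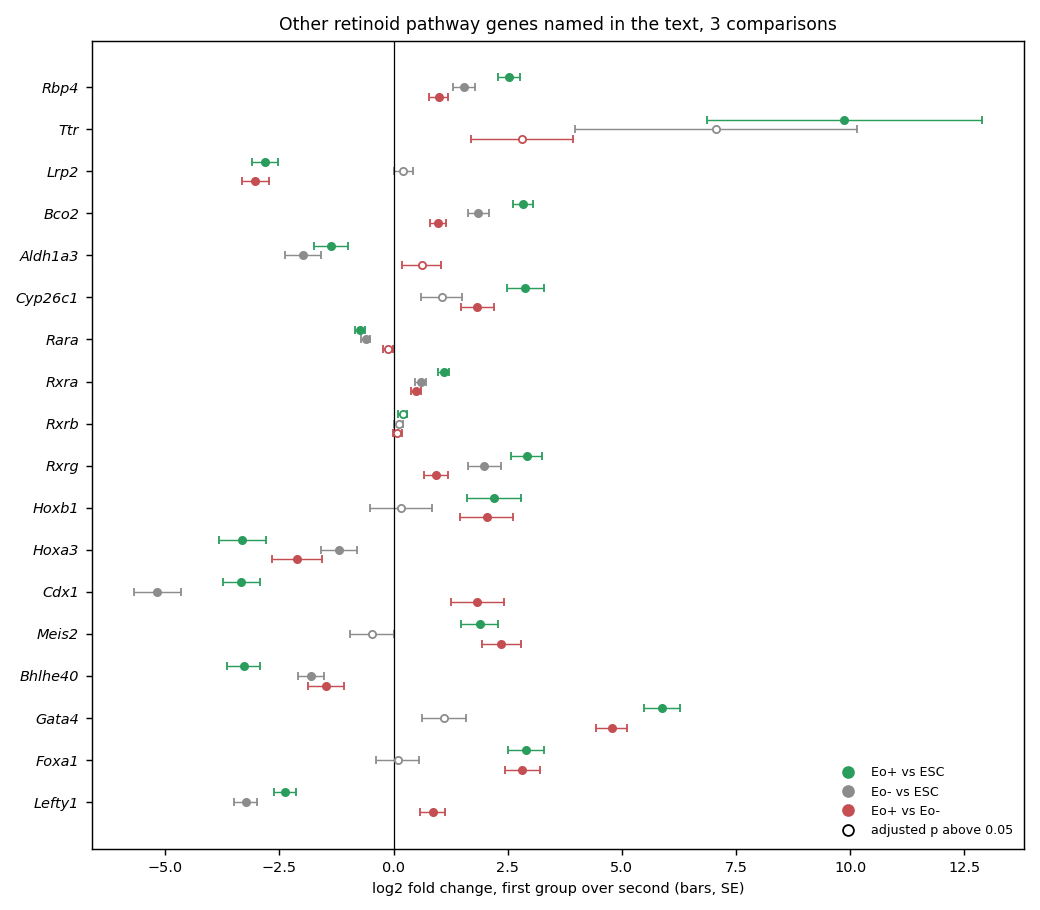
Log2 fold change (x axis, first group over second, with SE bars) of further pathway genes in the 3 comparisons, with open symbols where the adjusted p was above 0.05. Gata4 sits at 5.88 in Eo+ vs ESC, and Cdx1 at -5.17 in Eo- vs ESC.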

How the data were processed

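Poly(A) RNA-Seq reads of 4 ESC, 4 Eo- and 4 Eo+ libraries were processed by the authors, who mapped the stranded paired reads to mm10, assembled transcripts with Cufflinks 2.2.1 on top of Ensembl and counted reads per merged locus by strand with HTSeq 0.6.1 (versions per the submitters' processing notes). The deposited table holds these raw counts, without scaling. HTSeq left aside 22.4% to 26.2% of alignments as not unique and 2.65% to 3.60% as outside any locus, which entered neither library sizes nor tests, and 0 columns of other samples were found.

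From the counts, CPM with TMM-scaled library sizes (edgeR 4.0.16) and FPKM per summed exon length were computed. Tested loci had a mean FPKM above 0.1 in any group and held a PCG, an annotated lncRNA or a multiexonic non-annotated transcript (17922 loci). Counts were transformed by voom, 1 mean per group was fitted with limma 3.58.1 in R 4.3.3, and two-sided p-values adjusted to 0.05 or less made a call. The code was tested on simulated data in which a small share of loci changed, and in Eo+ only, unlike these data. Alternatives were edgeR and DESeq2 1.42.0, other scalings and filters, a block on replicate numbers and the removal of each library.

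Same-numbered Eo+ and Eo- libraries deviated together from their group means (correlations of 0.317 to 0.633, each number matching best with itself), so that numbers pair these fractions. For Eo+ vs ESC (-0.103 to 0.125) and Eo- vs ESC (-0.123 to 0.355), numbers 1 and 2 matched best with themselves, while 5 and 6 did not. A pairing with ESC was thus seen for only some of the numbers. The floor of 3 counts covers counting error only, since reads carried no molecular identifiers. P-values measure the spread between differentiation sets of 1 line.

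The 9 genes, the pathway and marker lists and the comparisons were chosen with earlier results of these data known. All 9 genes are named, together with pathway genes called with an absolute log2 fold change of 2 or more and 1 CPM or more in the higher group mean, and the paralogs of the 9 genes, apart from some genes that are not reported here but stay in the counts of their lists. Rdh10 and XLOC_036621 were named after their values were seen. Of 56 pathway genes, 55 were matched by symbol. The deposited normalized signal, which the authors made by scaling these counts, was not used.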

Additional observations from a re-analysis of the deposited data

Results flagged for a closer look

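Dixon's test for 1 library far from the other 3 was applied in 87 groups of 4 libraries and marked 5, where chance marks about 1 in 20. Aldh1a2 was at 3.32 CPM in ESC replicate 5 against 3.68 to 3.75 CPM in the other 3, a small gap in a narrow group. Dhrs3 was at 8.48 CPM in Eo+ replicate 5 against 3.55 to 4.22 CPM. Lefty1 was at 102 CPM in the same library against 44.4 to 51.3 CPM. Ttr was at 3.84 CPM in Eo- replicate 1 against 0.187 to 0.627 CPM. Aldh1a1 was at 0.0337 CPM in Eo- replicate 5 against 0.0903 to 0.101 CPM.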

How the results depend on the processing

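For the 9 genes, 27 fold changes were recomputed under 600 combinations of gene, comparison and alternative, of which 563 kept direction and side of the threshold, 19 lost the call, 11 gained it and 7 changed sign. The sign changes were those of Crabp1 in Eo- vs ESC (-0.0154 with DESeq2, -0.0153 with loci of any class, and -0.0541 to 0.145 without 1 library, where leaving out ESC replicate 5 or Eo- replicate 2 made it negative) and of Dhrs3 in Eo+ vs ESC (-0.1375 to 0.3025 without 1 library, negative without ESC replicate 1 or Eo+ replicate 5, and -0.0759 without Eo+ replicates 1 and 5 together). None of these was called. The cause was not tested. Requiring a 2-fold change left 2 of the 9 genes and 14 pathway genes called in Eo- vs ESC, and 11 pathway genes in Eo+ vs Eo-, because a size was required as well. Without 1 library at a time, 7 to 8, 4 to 5 and 5 to 7 of the 9 genes were called in Eo+ vs ESC, Eo- vs ESC and Eo+ vs Eo-, and 37 to 38, 28 to 31 and 24 to 28 pathway genes. The replicate block on the day 3 libraries alone, added after the data were seen, called 9 of the 9 genes in Eo+ vs Eo-, and 58.0% of all loci. Over all libraries the block changed the calls of Stra8 and Dhrs3 in Eo+ vs Eo- and no other. Over all loci, library totals without TMM split the Eo- vs ESC calls into 6200 higher and 5004 lower, and DESeq2 size factors into 5046 and 6100, against 5544 and 5610. Levels per length depend on the transcript models, and the Eo+ level of Cyp26a1 was 235 FPKM with its Ensembl transcript. Of the 9 genes, Stra8 in Eo+ had the fewest counts, 3 to 47, and Ttr in ESC, which the text also names, had 0 to 20.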

Other observations

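Pathway genes that rose in Eo+ cells did not share 1 order over the 4 Eo+ libraries, a pattern picked out after the values were seen and left untested. In the order of replicates 1, 2, 5 and 6, Hoxb1 was at 12.7, 22.8, 4.92 and 28.4 CPM, Meis2 at 12.3, 26.5, 7.04 and 25.7 CPM and Rxrg at 11.9, 28.1, 14.1 and 28.7 CPM, so that replicates 2 and 6 were highest, as for Cyp26a1 and Crabp1. Foxa1 was at 12.6, 4.46, 12.1 and 6.66 CPM, so that replicates 1 and 5 were highest, as for Rarb and the visceral endoderm markers.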
